A study of Sus scrofa with 12 samples.

Results

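The main back muscle, the longissimus dorsi, was profiled in Meishan pigs at 65 days post coitus (dpc) and at 3, 60 and 120 days after birth, with 3 arrays at each of the 4 stages. The genes described here are those whose symbol starts with HNRNP, SRSF, SF3, SNRP, PRPF, DDX or RBM, which are 7 families of splicing factors, RNA-binding proteins and RNA helicases. Members were found by symbol in the annotation of the array, and 97 genes of 6765 annotated symbols qualified. They were 17 HNRNP, 11 SRSF, 7 SF3, 10 SNRP, 9 PRPF, 21 DDX and 22 RBM genes. A gene with several probe sets is represented by its brightest one on average. All animals were of one breed under standard commercial feeding, and the study set out to describe expression across the genome as this muscle develops. A fetal sample stands for the fetuses of one sow handled as 1 individual, and the labels give no sex and no litter after birth. DDX3X and RBM14 share their probe sets with another symbol and were not used here, and PRPF8, DDX5, DDX17, RBM20 and RBM24 were not analysed here.

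Splicing removes introns from the primary transcript in the spliceosome, a machine built from small nuclear ribonucleoproteins (snRNPs). SNRP genes encode Sm proteins and proteins of the U1 and U2 snRNPs. The SF3A and SF3B complexes help to choose the branch site, and PRPF proteins assemble and activate the tri-snRNP. Around this core, SR proteins (SRSF genes) mostly bind exon sequences and favour the use of nearby splice sites, whereas hnRNP proteins coat nascent RNA and often oppose them. DEAD-box helicases (DDX genes) remodel RNA and RNA-protein complexes in splicing, ribosome assembly, translation and antiviral sensing, and RBM proteins share an RNA-recognition motif and have diverse roles. Skeletal muscle uses many alternative exons, in titin, troponin T and tropomyosin genes among others, and exon choice changes as fibres mature. The arrays measured transcript level per probe set and not exon use.

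A value is the deposited intensity of a probe set on a linear scale, and changes are differences of log2(intensity + 21) with the standard error (SE) of the fit. A gene is called when limma's test gave an adjusted p under 0.05 over all 16166 probe sets tested. Of the 97 genes, 94 passed the filter on dim probe sets, 89 of them on every array, and 0 passed through the arrays of 1 stage alone. The 3 genes left untested were dim on most arrays. SRSF12 lay between 15.1 and 44.4, DDX25 between 6.29 and 42.0, and DDX4, a germ cell helicase, between 5.56 and 12.6.

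Array medians lay between 49.1 and 52.6, and arrays of one stage correlated with r of 0.905 to 0.985 across probe sets. The actin 3-prime over 5-prime ratio, a sign of RNA integrity and labelling, was 2.32 to 2.64 on fetal arrays, 2.58 to 4.69 at 3 days, 3.85 to 6.18 at 60 days and 4.17 to 5.96 at 120 days. Replicate 3 had the lowest ratio at every stage. Of 12 fibre genes listed as markers, 9 were measured, and 7 of them rose between the fetus and 3 days. Their summed intensity was 33239 to 46361 in the fetus and 59947 to 63067 at 3 days, and the lowest single value was 170.1. Fetal replicate 2 and 60 days replicate 1 stood apart from the other arrays of their stages in the SNRP genes and the small SF3 subunits. Over all probe sets tested, the deviations of these arrays from their stage means correlated at r = 0.646. That was the highest r of any pair of arrays from different stages. For the genes described, a call at 3 or 120 days that was lost without both arrays is named with the gene.

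Across the 4 stages 37 of 94 genes (39.4%) were called by the F test, beside 46.9% of all probe sets. Most of these 37 were at their highest mean in the fetus (28 genes, 75.7%) and at their lowest at 120 days (25 genes, 67.6%). Among all called probe sets those shares were 48.4% and 27.9%. From the fetus to 3 days 24 genes were called, 25.5% of those measured against 43.0% of all probe sets: 20 fell (all probe sets, 22.6% lower) and 4 rose (all probe sets, 20.3% higher). The median change of the 94 genes was -0.23, where that of all probe sets was -0.00045. At 120 days against the fetus 43 genes were called, 45.7% beside a background of 48.4%, with 39 lower (all probe sets, 25%) and 4 higher (all probe sets, 23.4%). The median there was -0.47, and that of all probe sets was 0.0036. Counted over 1 probe set for each of 5765 genes, the background was 45.9% across the stages, 41.8% at 3 days (22.7% higher and 19.1% lower) and 46.9% at 120 days (24.2% higher and 22.7% lower). Both comparisons use the same 3 fetal arrays, so they are not independent. With each array centred on its hybridization controls instead, which moved the median of all probe sets by -0.30 and -0.44, the calls were 0 higher and 36 lower at the first step and 0 higher and 67 lower over the whole span. That scaling moved the changes of all probe sets down together, which favours lower calls and works against higher ones. It is therefore no check of the falls. All 20 and all 39 falls remained called under it, and the calls of DDX1, DDX47, DDX54, DDX56 and DDX58 as higher were lost. Under quantile normalization the calls were 7 higher and 14 lower at 3 days and 4 higher and 36 lower at 120 days. Of all 16166 probe sets, 3589 were higher and 3249 lower at 3 days there, and 4115 and 3731 at 120 days. The share of genes called lower at 3 and at 120 days, beside 22.6% and 25% of all probe sets, was 23.5% and 64.7% in HNRNP, 20% and 80% in SRSF, 42.9% and 71.4% in SF3, 0% and 20% in SNRP, 33.3% and 44.4% in PRPF, 15.8% and 15.8% in DDX and 22.7% and 27.3% in RBM.

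**Figure D1:**
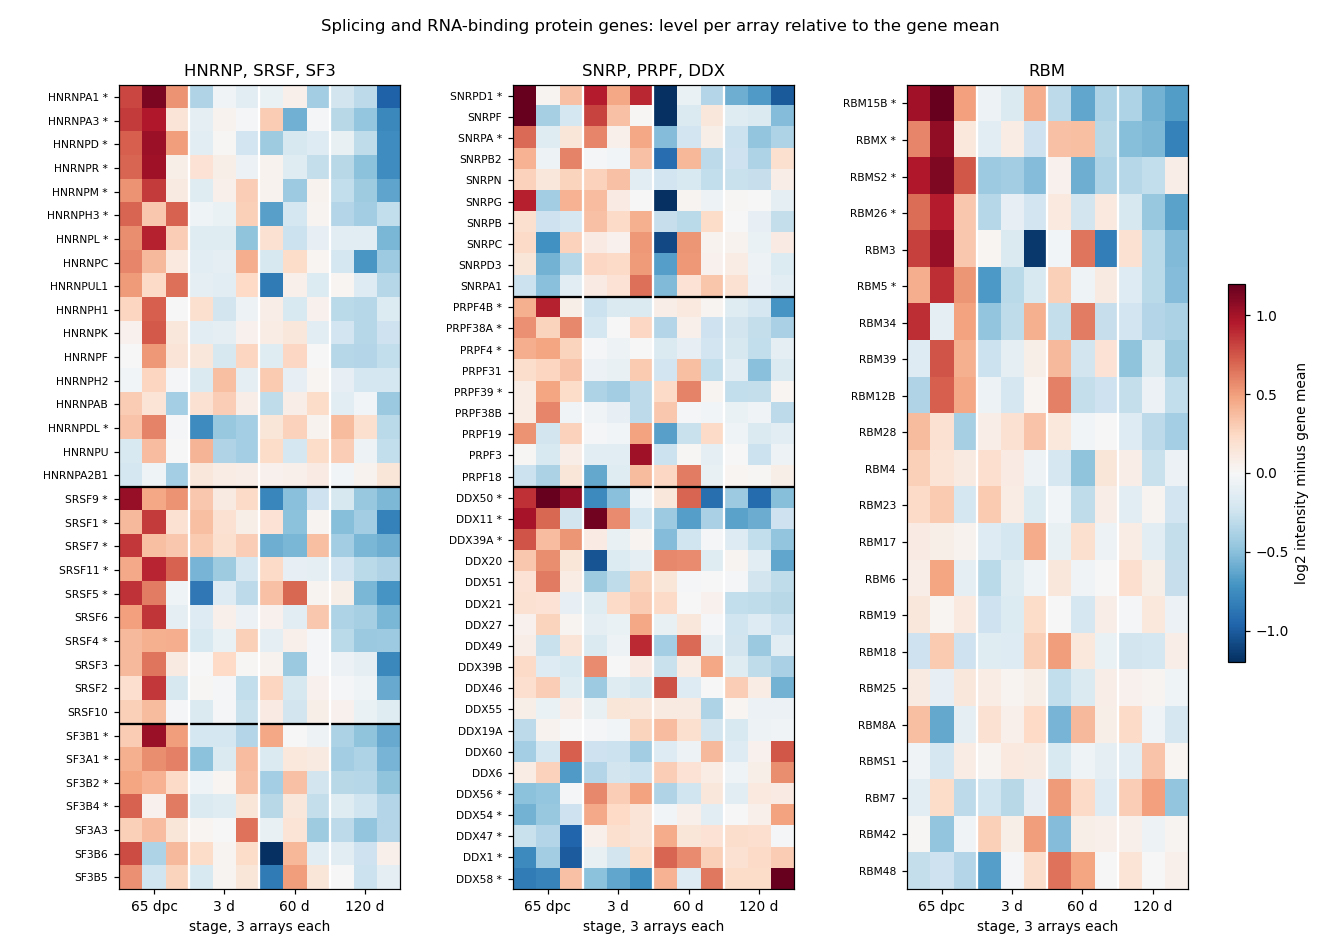
Each row is 1 of the 94 measured genes and each column 1 of the 12 arrays; colour gives log2(intensity + 21) minus the mean of that gene over all arrays, with genes of a family sorted by their change from 65 dpc to 120 days and an asterisk for the 37 genes called across the stages. The 3 fetal columns are mostly red in HNRNP, SRSF and SF3 rows, while SNRP rows are blue on 60 days replicate 1 and the last DDX rows run the other way.

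The called falls came with a fall of genes that mark dividing cells. Of 10 such markers 8 were measured, 6 were lower at 3 days and all 8 were lower at 120 days than in the fetus. Their summed intensity was 1403 to 2269 in the fetus, 513 to 826 at 3 days, 352 to 599 at 60 days and 408 to 452 at 120 days, with a lowest single value of 8.94. The actin ratio above and the fibroblast and matrix markers also moved from the fetus to 3 days, the latter from a sum of 8504 to 14228 down to 3097 to 4826 with 3 of 5 called lower. COL3A1 of that list changed by 0.14 (adjusted p = 0.644) at 3 days and 0.49 (adjusted p = 0.0954) at 120 days and was not called. MYF5, a marker of muscle precursor cells, changed by -2.47 (adjusted p = 0.000187) at 3 days and -3.17 (adjusted p = 2.48e-05) at 120 days. The other such marker measured, MYOD1, was called by the F test across the stages (adjusted p = 0.0416). Its changes of -0.64 (adjusted p = 0.151) at 3 days and -0.85 (adjusted p = 0.0573) at 120 days were not called. Of 4 adipocyte markers, 3 were higher at 3 days and 2 at 120 days, with a sum of 328 to 621 in the fetus and 1209.8 to 1683 at 3 days. Of 3 nerve and Schwann cell markers, 2 were higher and 1 lower at 3 days. At that stage 1 of 5 endothelial and 1 of 3 erythroid markers were lower, and 0 of 4 immune markers tested were called. The part of these markers and of the actin ratio in the results below was not tested. In bulk muscle, fewer cells of a type and less RNA per cell cannot be told apart.

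The HNRNP genes that changed all fell. At 3 days 4 of 17 were called lower and 0 higher, and at 120 days 11 of 17 were lower and 0 higher, with median changes of -0.43 and -0.63 from the fetus. HNRNPA1 read 2056, 2579 and 1709 on the fetal arrays, 908, 1136 and 1065 at 3 days, 1104, 1221 and 873 at 60 days and 1001, 937 and 588 at 120 days. Its product is an abundant repressor of exon inclusion. All 9 arrays after birth lay below the 3 fetal arrays, and the change was -1.0 ± 0.24 (adjusted p = 0.00606) at 3 days and -1.32 ± 0.24 (adjusted p = 0.000876) at 120 days, 2.5-fold lower. HNRNPD read 1715, 2128 and 1474 on the fetal arrays, 949, 1049 and 883 at 3 days, 766, 901 and 929.8 at 60 days and 973, 834 and 609 at 120 days. This gene encodes AUF1, which binds AU-rich elements in messenger RNA and affects their decay. Fetal and later arrays did not overlap here either, with changes of -0.86 ± 0.21 (adjusted p = 0.00736) and -1.13 ± 0.21 (adjusted p = 0.00115). HNRNPL, which binds CA repeats, also had all later arrays below the fetal ones, with changes of -0.85 ± 0.22 (adjusted p = 0.00982) and -0.86 ± 0.22 (adjusted p = 0.00745).

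The remaining HNRNP genes described were called at a single stage or at none. HNRNPR read 1216, 1519 and 776 on the fetal arrays, 838, 776 and 706 at 3 days, 761, 668 and 605 at 60 days and 585, 521 and 433 at 120 days. Its change at 3 days, -0.54 ± 0.24 (adjusted p = 0.0907), was not called, and fetal replicate 3 and 3 days replicate 2 read the same to 3 digits. By 120 days all 3 arrays were below the fetal arrays, with a change of -1.12 ± 0.24 (adjusted p = 0.00256). HNRNPA3 changed by -0.69 ± 0.27 (adjusted p = 0.0566) at 3 days and by -1.17 ± 0.27 (adjusted p = 0.00365) at 120 days. HNRNPC read 829, 724 and 597 on the fetal arrays, 497, 507 and 747 at 3 days, 475, 643 and 558 at 60 days and 470.1, 329.6 and 399 at 120 days. HNRNPC is a core protein of the particles that package nascent RNA. It was called at 120 days, where its arrays lay below all others, with a change of -0.81 ± 0.23 (adjusted p = 0.0114). The other probe set of HNRNPC changed by 0.0011 (adjusted p = 0.995) at 120 days. HNRNPK, a poly(C)-binding protein, changed by -0.58 ± 0.19 (adjusted p = 0.0239) over the whole span. HNRNPDL read 943, 1134 and 728 on the fetal arrays, 431, 535 and 552 at 3 days, 822, 902 and 762 at 60 days and 971, 850.1 and 590.4 at 120 days. It is a relative of HNRNPD that was called at the first step alone. All 3 arrays at 3 days lay below the fetal arrays (-0.84 ± 0.23, adjusted p = 0.0118), while the change from 3 to 60 days was 0.69 ± 0.23 (adjusted p = 0.157) and that of 120 days against the fetus -0.22 ± 0.23 (adjusted p = 0.454). HNRNPA2B1 was the member of the family with the opposite order: its fetal arrays, 1766, 1979.9 and 1534, lay below all 9 later ones, which read from 1999 to 2261, but its change of 0.33 ± 0.15 (adjusted p = 0.0975) was not called. It was called higher at 3 and at 120 days without fetal replicate 2 and 60 days replicate 1, where the family had 1 higher and 6 lower genes at 3 days and 1 higher and 10 lower at 120 days. It was also called at 3 days with no variance trend. With 1 array left out at a time, the number of HNRNP calls ran from 3 to 6 at the first step and from 7 (without 120 days replicate 2) to 12 over the whole span. The call of HNRNPDL was lost without 3 days replicate 1 (highest adjusted p = 0.0511), that of HNRNPC without 120 days replicate 2 (highest adjusted p = 0.0561) and that of HNRNPK without 65 dpc replicate 2 or 120 days replicate 1 or 2 or 3 (highest adjusted p = 0.0835).

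**Figure D2:**
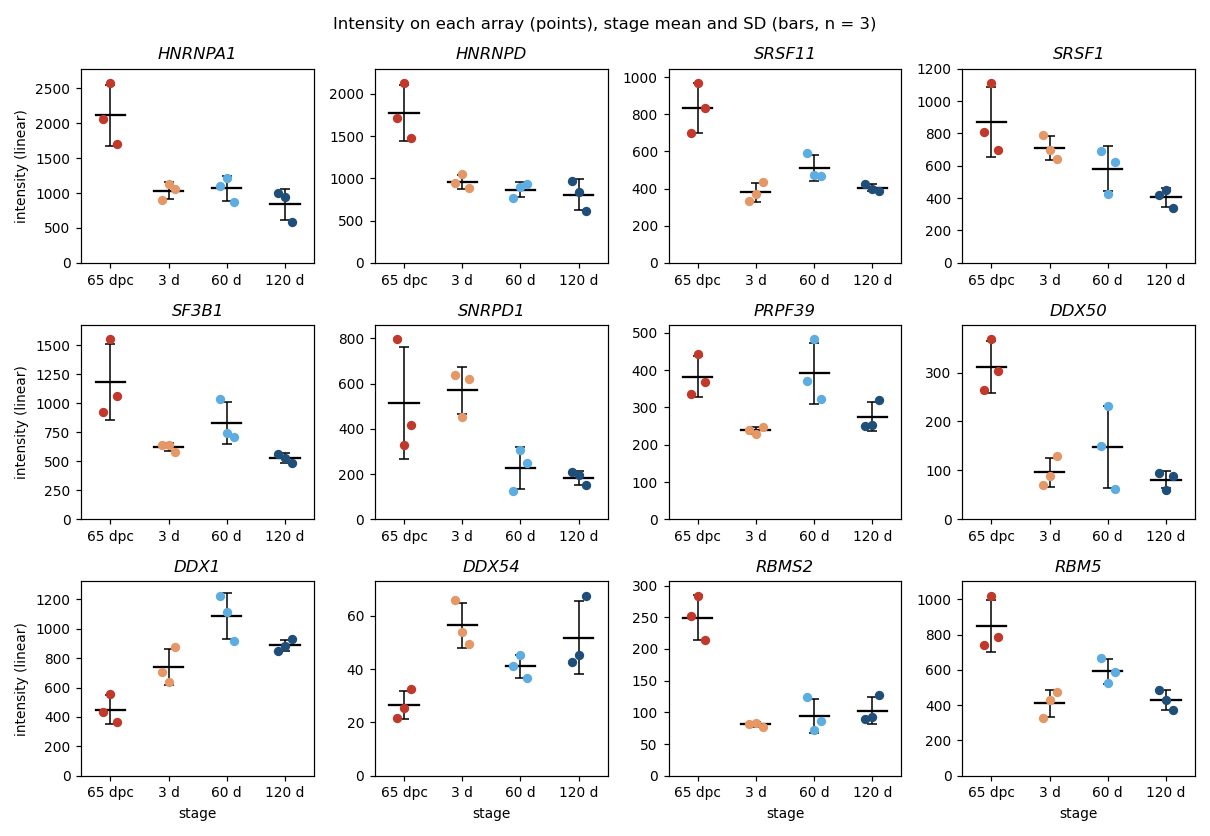
Points are deposited intensities (linear axis from 0) on the 3 arrays of each stage for 12 genes, with bars for the stage mean and SD. The fetal points lie above all later points for HNRNPA1, HNRNPD, SRSF11, DDX50, RBMS2 and RBM5, and below them for DDX1 and DDX54, while PRPF39 is low at 3 days and higher again at 60 days.

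Among SR protein genes, 10 of 11 were measured and all 10 had a change below 0 at both 3 and 120 days. Only 2 were called at 3 days, SRSF11 and SRSF5, and 8 at 120 days (median changes of -0.40 and -0.86). SRSF11 read 699, 969 and 835 on the fetal arrays, 335, 369 and 436 at 3 days, 594, 471 and 468 at 60 days and 427, 399 and 388 at 120 days. SRSF11 encodes an SR-related factor that contacts U2AF at the start of splice site recognition. Its later arrays were all below the fetal ones, with changes of -1.09 ± 0.19 (adjusted p = 0.000983) at 3 days and -1.0 ± 0.19 (adjusted p = 0.00131) at 120 days, and the first fall was 2.13-fold. SRSF5 read 415, 344 and 209 on the fetal arrays, 111, 193 and 171 at 3 days, 282, 364 and 223 at 60 days and 229.7, 142 and 125 at 120 days. The gene changed by -0.92 ± 0.30 (adjusted p = 0.0264) at 3 days, 0.80 ± 0.30 (adjusted p = 0.205) from 3 to 60 days and -0.87 ± 0.30 (adjusted p = 0.0292) at 120 days against the fetus. The arrays at 60 and at 120 days overlapped those of the fetus.

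The other SR genes with calls were called at 120 days and not at 3 days. SRSF1 read 809, 1112 and 695 on the fetal arrays, 791, 699 and 641 at 3 days, 693, 428 and 625 at 60 days and 422, 452 and 341 at 120 days. SRSF1 is the founding SR protein and is required in constitutive and alternative splicing. Its change at 3 days, -0.27 ± 0.24 (adjusted p = 0.385), was within the spread, and all 3 arrays at 120 days lay below every fetal and 3-day array, with a change of -1.05 ± 0.24 (adjusted p = 0.00336). SRSF9 read 817, 540.4 and 570.3 on the fetal arrays, 489, 417 and 455 at 3 days, 216, 266 and 321 at 60 days and 335, 276 and 259 at 120 days. The 60-day arrays of SRSF9 were already below all 3-day arrays, a step of -0.73 ± 0.22 (adjusted p = 0.113) that was not called, and its change over the whole span was -1.08 ± 0.22 (adjusted p = 0.00155). SRSF7 read 1024, 727 and 707 on the fetal arrays, 700.0, 642 and 693 at 3 days, 367, 376 and 724 at 60 days and 416, 376 and 368 at 120 days. Here 60 days replicate 3 stood with the earlier stages, and the change at 120 days was -1.03 ± 0.26 (adjusted p = 0.00592). SRSF6 at -0.85 ± 0.24 (adjusted p = 0.0103), SRSF4 at -0.82 ± 0.17 (adjusted p = 0.00213) and SRSF3 at -0.70 ± 0.24 (adjusted p = 0.0287) were called over the whole span too, and SRSF2 at -0.51 ± 0.27 (adjusted p = 0.136) was not. Without 1 array, 1 to 3 SRSF genes were called at 3 days, 1 of them without 65 dpc replicate 1, 65 dpc replicate 2 or 3 days replicate 1. At 120 days the count was 6 to 9. SRSF5 lost its first call without 65 dpc replicate 1 or 2 or 3 days replicate 1 (highest adjusted p = 0.11) and its later one without 65 dpc replicate 1 or 2 or 120 days replicate 2 or 3 (highest adjusted p = 0.112), and SRSF3 its call without 65 dpc replicate 1 or 2 or 120 days replicate 3 (highest adjusted p = 0.133). These 3 calls were also lost without fetal replicate 2 and 60 days replicate 1 (adjusted p from 0.0812 to 0.0921). Quantile normalization ended both calls of SRSF5 (adjusted p = 0.0506 and 0.0576), and with its other probe set SRSF9 changed by -0.13 (adjusted p = 0.322) at 120 days.

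SF3A and SF3B proteins form the part of the U2 snRNP that binds the branch site. Of the 7 SF3 genes, 3 were called lower at 3 days and 5 at 120 days, with 0 higher and medians of -0.26 and -0.70. SF3B1 read 927, 1552 and 1066 on the fetal arrays, 639, 640.0 and 579.7 at 3 days, 1039.6, 746 and 712 at 60 days and 567, 527 and 482 at 120 days. SF3B1 is the largest SF3B subunit. The 3-day arrays lay below all fetal arrays (-0.88 ± 0.22, adjusted p = 0.0083), 60 days replicate 1 returned into the fetal range, and 120 days was lowest (-1.11 ± 0.22, adjusted p = 0.00172). SF3A1 read 103, 114 and 119 on the fetal arrays, 44.7, 60.6 and 98.1 at 3 days, 60.9, 79.8 and 78.6 at 60 days and 48.1, 50.2 and 41.8 at 120 days. Its fall was -0.63 ± 0.19 (adjusted p = 0.0177) and then -0.98 ± 0.19 (adjusted p = 0.00119). 3 days replicate 3 lay just below the lowest fetal array, and the other two were far below it. SF3B4 was called at both, at -0.52 ± 0.20 (adjusted p = 0.049) and -0.70 ± 0.20 (adjusted p = 0.0109), and SF3B2 at 120 days alone, at -0.76 ± 0.20 (adjusted p = 0.0072). SF3B5 and SF3B6, small subunits, were low on 60 days replicate 1, at 325 and 294, and were not called. Without that array and fetal replicate 2, both were called lower at 120 days and 6 of 7 SF3 genes in all. Those arrays stood apart in these same subunits, so the calls gained without them are not independent support. SF3A1 lost its call at 3 days without 3 days replicate 1 or 2 (highest adjusted p = 0.0809), and SF3B4 without 65 dpc replicate 1 or 3, 3 days replicate 1 or 2, 60 days replicate 1 or 3 or 120 days replicate 1 or 2 or 3 (highest adjusted p = 0.162). The count at 3 days was 1 without 3 days replicate 1 or 3 days replicate 2. Quantile normalization ended the call of SF3B4 at 3 days (adjusted p = 0.125).

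The SNRP genes, which encode Sm proteins and proteins of the U1 and U2 snRNPs, differed in their course between arrays of one stage. At 3 days 0 of 10 were called by limma, with 1 at an unadjusted p under 0.05, and the median change was 0.18. From 3 to 60 days all 10 had a change below 0 (median -0.43), and at 120 days against the fetus 2 were called lower, with a median of -0.36. SNRPD1 read 795, 329.7 and 417 on the fetal arrays, 638, 452 and 622 at 3 days, 126, 305 and 248 at 60 days and 208, 194 and 149.6 at 120 days. SNRPD1, an Sm core protein, did not overlap between 3 and 60 days, and that step of -1.32 ± 0.34 (adjusted p = 0.0861) had the smallest adjusted p of all 94 genes there without being called. Over the whole span its change was -1.30 ± 0.34 (adjusted p = 0.00807). SNRPA read 161, 81.7 and 105 on the fetal arrays, 149, 97.3 and 135 at 3 days, 58.1, 75.7 and 98.0 at 60 days and 74.2, 60.8 and 66.6 at 120 days. SNRPA, a protein of the U1 snRNP, changed by -0.59 ± 0.22 (adjusted p = 0.0424) at 120 days, a call lost without 65 dpc replicate 1 or 3 or 120 days replicate 1 or 2 or 3 (highest adjusted p = 0.177). SNRPN, an Sm protein gene imprinted in mammals, read 293, 265 and 291 in the fetus and 195, 193 and 254 at 120 days, which gave -0.38 ± 0.18 (adjusted p = 0.105). SNRPB read 404, 292 and 304 in the fetus and 453, 417 and 479 at 3 days without overlap, yet the change of 0.42 ± 0.21 (adjusted p = 0.115) was not called.

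The SNRP values depended on single arrays. The median over the 10 genes, taken about each gene's mean, was -0.33 on fetal replicate 2, against 0.34 and 0.20 on the other fetal arrays, and -0.79 on 60 days replicate 1, against -0.020 and 0.047 on the others of that stage. SNRPF showed it plainly, with 812, 194 and 223 in the fetus and 98.8, 231 and 291 at 60 days. Without both arrays the median change at 3 days was -0.038 rather than 0.18, that from 3 to 60 days was -0.28, and 3 genes (SNRPA, SNRPD1 and SNRPG) were called lower at 120 days, with a median of -0.54. Both arrays stood apart in these same genes, so the call gained for SNRPG is not independent support. With all arrays, the other probe sets of SNRPG and SNRPA1 were called higher at 3 and at 120 days. That of SNRPN was called lower at 120 days. Without fetal replicate 1 the median at 120 days was -0.0029 and 1 gene was called, and without 60 days replicate 1 alone 2 genes, SNRPA1 and SNRPD3, were called higher at 3 days. Centred on hybridization controls, the median at 3 days was -0.11 with 0 calls, and under quantile normalization it was 0.29 with SNRPA1 and SNRPB called higher. Quantile normalization left SNRPD1 as the 1 gene called lower at 120 days (SNRPA, adjusted p = 0.0845).

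**Figure D3:**
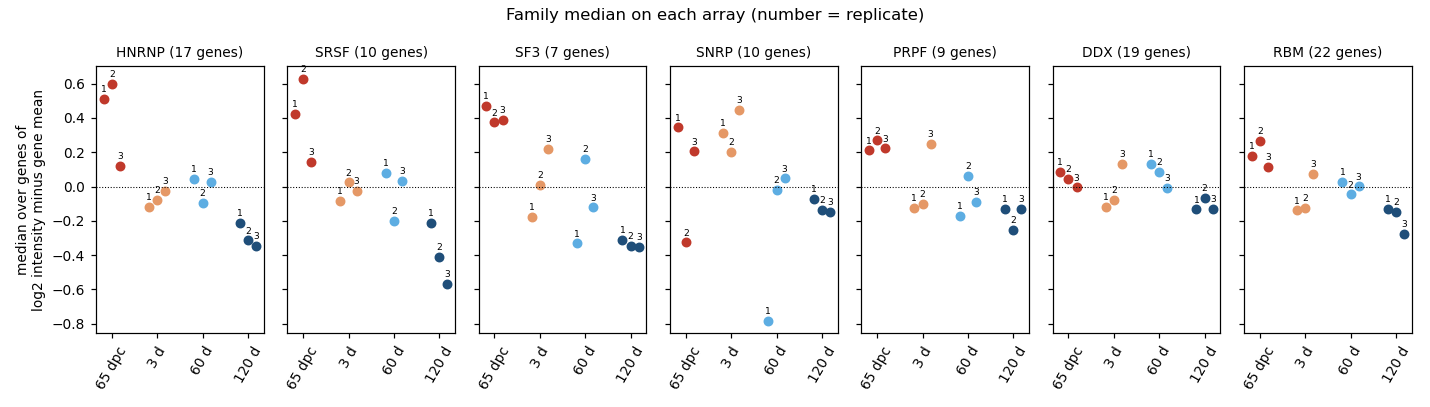
For each family and array the point is the median over its measured genes of log2(intensity + 21) minus the gene's mean, with the replicate number above it. HNRNP, SRSF and SF3 are highest on fetal arrays, HNRNP and SRSF are lowest at 120 days, and SNRP is at -0.33 on fetal replicate 2 and at -0.79 on 60 days replicate 1.

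PRPF proteins act in the tri-snRNP and in the steps that activate the spliceosome. Of 9 genes, 3 were called lower at 3 days and 4 at 120 days, with 0 higher and medians of -0.36 and -0.45. PRPF4 read 163, 168 and 143 on the fetal arrays, 113, 109 and 115 at 3 days, 99.9, 106 and 95.3 at 60 days and 97.7, 89.6 and 105 at 120 days. PRPF4, a U4/U6 snRNP protein, had small spreads, and every later array was below every fetal one. Its changes were -0.42 ± 0.13 (adjusted p = 0.0182) and -0.59 ± 0.13 (adjusted p = 0.00233). PRPF4B read 335, 482 and 258 on the fetal arrays, 201, 214 and 214 at 3 days, 259, 266 and 249 at 60 days and 218, 209 and 141 at 120 days. This kinase, which phosphorylates tri-snRNP proteins, changed by -0.68 ± 0.23 (adjusted p = 0.0295) and -0.83 ± 0.23 (adjusted p = 0.00959). PRPF39 read 336, 444 and 369 on the fetal arrays, 238, 229.9 and 248 at 3 days, 371, 483 and 322 at 60 days and 252, 254 and 319.6 at 120 days. PRPF39, a U1-associated protein, was at its lowest at 3 days (-0.63 ± 0.20, adjusted p = 0.022), and its 60-day arrays were all above those of 3 days, a step of 0.65 ± 0.20 (adjusted p = 0.12). Against the fetus, 120 days was -0.45 ± 0.20 (adjusted p = 0.0771). PRPF38A, needed for spliceosome activation, was called over the whole span (-0.77 ± 0.17, adjusted p = 0.00348), as was PRPF31 (-0.54 ± 0.19, adjusted p = 0.0342), a tri-snRNP assembly factor. The first-step calls were lost for PRPF4 without 3 days replicate 2 (highest adjusted p = 0.0599), for PRPF39 without 65 dpc replicate 2 or 3 days replicate 1 or 2 (highest adjusted p = 0.0743) and for PRPF4B without 65 dpc replicate 1 or 2 or 3 days replicate 1 or 2 or 3 (highest adjusted p = 0.114). Without 3 days replicate 2, 0 PRPF genes were called by limma at 3 days. Under quantile normalization 0 were called there too, with adjusted p of 0.101 for PRPF4, 0.0628 for PRPF39 and 0.0718 for PRPF4B. Without fetal replicate 2 and 60 days replicate 1, PRPF39 (adjusted p = 0.0692) and PRPF4B (adjusted p = 0.113) were lost and PRPF38A was called at 3 days. The call of PRPF31 was lost without 65 dpc replicate 1 or 2 or 3 or 120 days replicate 2 or 3 (highest adjusted p = 0.139), without fetal replicate 2 and 60 days replicate 1 (adjusted p = 0.0673) and under quantile normalization (adjusted p = 0.0815).

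The DEAD-box helicases were the family with calls both ways. The share called higher was 21.1% at 3 and at 120 days, near that of all probe sets (20.3% and 23.4%). The share called lower was 15.8% at both (all probe sets, 22.6% and 25%). Calls both ways are therefore not read as a trait of this family. At 3 days 4 of 19 measured genes were higher (DDX1, DDX47, DDX54 and DDX56) and 3 lower (DDX20, DDX39A and DDX50), with a median change of 0.021 that ran from -0.11 to 0.073 with 1 array left out. At 120 days 4 were higher (DDX1, DDX47, DDX54 and DDX58) and 3 lower (DDX11, DDX39A and DDX50), and the median was -0.18. Centred on hybridization controls, 0 of these rises were called and the medians were -0.28 and -0.63 (all probe sets, -0.30 and -0.44). Quantile normalization gave 0.13 and -0.059 (all probe sets, 0.051 and 0.057). DDX1 read 433, 554 and 363 on the fetal arrays, 704, 639 and 877 at 3 days, 1224, 1116 and 915 at 60 days and 851, 883 and 927 at 120 days. DDX1 encodes a helicase of RNA granules and of the transfer RNA ligase complex. All later arrays were above the fetal ones, with changes of 0.70 ± 0.21 (adjusted p = 0.0178) and 0.97 ± 0.21 (adjusted p = 0.00256), the latter 1.95-fold. DDX54 read 21.8, 25.4 and 32.4 on the fetal arrays, 65.9, 53.8 and 49.5 at 3 days, 41.2, 45.1 and 36.6 at 60 days and 42.8, 45.1 and 67.5 at 120 days. Its intensities were low on these arrays but did not overlap between the fetus and later stages, with 0.70 ± 0.14 (adjusted p = 0.00226) and 0.61 ± 0.14 (adjusted p = 0.00443). DDX47 read 191, 179 and 111 on the fetal arrays, 244, 271 and 261 at 3 days, 326, 260.1 and 266 at 60 days and 274, 272 and 229 at 120 days. DDX47, which acts in ribosomal RNA processing, changed by 0.66 ± 0.20 (adjusted p = 0.0203) and 0.65 ± 0.20 (adjusted p = 0.0182). DDX56 read 68.4, 70.2 and 104 on the fetal arrays, 167, 134 and 155 at 3 days, 77.4, 86.1 and 118 at 60 days and 93.8, 115 and 114 at 120 days. This nucleolar helicase of ribosome assembly was higher at 3 days alone (0.78 ± 0.18, adjusted p = 0.00446), with -0.60 ± 0.18 (adjusted p = 0.113) from 3 to 60 days and 0.35 ± 0.18 (adjusted p = 0.122) over the whole span.

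Of the rises, DDX54 and DDX56 were called at 3 days with any 1 array left out. DDX1 was not called at 3 days without 65 dpc replicate 3 or 3 days replicate 3 (highest adjusted p = 0.0647), nor DDX47 without 65 dpc replicate 3 or 3 days replicate 2 (highest adjusted p = 0.0749). DDX58 read 19.2, 20.2 and 71.1 on the fetal arrays, 30.1, 25.7 and 22.3 at 3 days, 75.3, 43.8 and 90.7 at 60 days and 62.9, 63.2 and 230.0 at 120 days. DDX58 encodes RIG-I, a sensor of viral RNA induced by interferon. Fetal replicate 3 and 120 days replicate 3 were above the other arrays of their stages, so the change of 1.18 ± 0.41 (adjusted p = 0.0313) came with overlapping groups, and it was lost without 65 dpc replicate 1 or 2 or 120 days replicate 3 (highest adjusted p = 0.131) and without fetal replicate 2 and 60 days replicate 1 (adjusted p = 0.126). DDX60, a helicase linked to RIG-I signalling, was also high on those arrays, at 54.1 and 55.5, and its change of 0.18 ± 0.28 (adjusted p = 0.617) was not called.

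Among DDX genes that fell, DDX50 had the largest change of the 94 genes. DDX50 read 264, 368 and 302 on the fetal arrays, 70.3, 88.8 and 129 at 3 days, 149, 231 and 62.1 at 60 days and 93.9, 60.8 and 87.9 at 120 days. DDX50 encodes a nucleolar helicase related to DDX21. Its fall was -1.52 ± 0.34 (adjusted p = 0.00363) at 3 days, 2.88-fold, and -1.71 ± 0.34 (adjusted p = 0.00143) at 120 days, 3.27-fold. The 60-day arrays were widely spread, and all later arrays remained below the fetal ones. DDX21 itself changed by -0.40 ± 0.18 (adjusted p = 0.0926) over the whole span. DDX39A read 239, 179 and 202 on the fetal arrays, 144, 124 and 136 at 3 days, 86.4, 109.7 and 130.4 at 60 days and 117, 104 and 90.2 at 120 days. This messenger RNA export helicase changed by -0.54 ± 0.17 (adjusted p = 0.0225) and -0.86 ± 0.17 (adjusted p = 0.00143), and its relative DDX39B changed by 0.25 ± 0.23 (adjusted p = 0.402) and -0.24 ± 0.23 (adjusted p = 0.415). The difference between both relatives was not tested. DDX11 read 136, 107 and 47.0 on the fetal arrays, 156, 96.6 and 47.4 at 3 days, 37.5, 29.0 and 39.4 at 60 days and 29.6, 31.3 and 45.5 at 120 days. DDX11 is a DNA helicase of chromatid cohesion in dividing cells, and its replicate 3 arrays in the fetus and at 3 days were close to the later stages. The change at 120 days was -0.98 ± 0.33 (adjusted p = 0.0272), and without 3 days replicate 3 the step from 3 to 60 days was called. DDX20, part of the SMN complex that loads Sm proteins onto snRNA, changed by -0.78 ± 0.28 (adjusted p = 0.0423) at 3 days. Calls were lost for DDX11 without 65 dpc replicate 1 or 2 or 120 days replicate 1 or 2 (highest adjusted p = 0.112), for DDX39A at 3 days without 65 dpc replicate 1 or 3 days replicate 2 (highest adjusted p = 0.0803) and for DDX20 without 65 dpc replicate 1 or 2, 3 days replicate 1 or 120 days replicate 2 (highest adjusted p = 0.186). Without fetal replicate 2 and 60 days replicate 1, DDX11 (adjusted p = 0.101) and DDX20 (adjusted p = 0.129) were lost, and quantile normalization ended the 3-day calls of DDX20 (adjusted p = 0.0819) and DDX39A (adjusted p = 0.102).

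**Figure D4:**
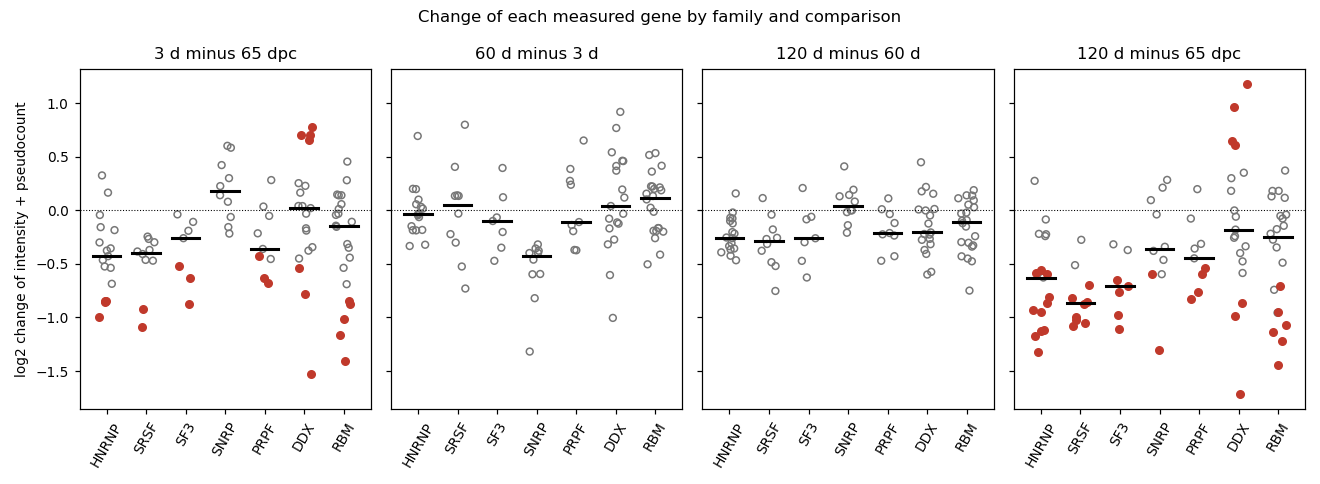
Each circle is the log2 change of 1 measured gene in its family (x axis) for each of 4 comparisons (panels), filled where called, with a bar at the family median. Called genes lie below 0 except for 4 DDX genes in the first panel and 4 in the last, 0 circles are filled in the middle panels, and the SNRP bar is at -0.43 for 60 against 3 days.

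RBM genes share a motif, and most were not called. Of 22, 5 were called lower at 3 days and 6 at 120 days, with 0 higher and medians of -0.15 and -0.25. These shares of lower genes, 22.7% and 27.3%, were near the 22.6% and 25% of all probe sets. RBMS2 read 252, 284 and 213 on the fetal arrays, 82.2, 83.7 and 76.7 at 3 days, 124, 72.2 and 87.1 at 60 days and 88.9, 92.7 and 127 at 120 days. RBMS2, a single-stranded nucleic acid binding protein, had the smallest adjusted p of the 94 genes at 3 days, -1.40 ± 0.19 (adjusted p = 0.000164), a 2.64-fold fall, with a change of -1.13 ± 0.19 (adjusted p = 0.000441) at 120 days. The 3-day arrays lay within a narrow range, and no later array reached the fetal level. RBM15B read 202, 236 and 135 on the fetal arrays, 84.9, 76.7 and 129 at 3 days, 68.0, 50.5 and 64.4 at 60 days and 64.7, 53.7 and 48.2 at 120 days. RBM15B, a partner of the RNA methylation machinery, fell over the whole span by 2.72-fold (-1.44 ± 0.21, adjusted p = 0.000185), after -0.84 ± 0.21 (adjusted p = 0.00689) at 3 days. 3 days replicate 3 was close to the lowest fetal array. The other probe set of RBM15B changed by 0.08 (adjusted p = 0.663) at 3 days and 0.02 (adjusted p = 0.907) at 120 days. RBM5 read 741, 1020.4 and 789.8 on the fetal arrays, 328, 429 and 474 at 3 days, 667, 524 and 586 at 60 days and 484, 428 and 372 at 120 days. RBM5, a regulator of exon choice in apoptosis genes, changed by -1.02 ± 0.21 (adjusted p = 0.00247) at 3 days, with 60-day arrays above all those of 3 days, and by -0.95 ± 0.21 (adjusted p = 0.00292) at 120 days. RBM26 read 621, 755 and 485 on the fetal arrays, 297, 355 and 324 at 3 days, 417, 325 and 415 at 60 days and 332, 274 and 238 at 120 days. Its changes were -0.87 ± 0.21 (adjusted p = 0.00618) and -1.07 ± 0.21 (adjusted p = 0.0014), without overlap between the fetus and later stages.

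RBMX read 802, 1122 and 578 on the fetal arrays, 479, 562 and 439 at 3 days, 677, 682 and 413 at 60 days and 362, 356 and 290.4 at 120 days. RBMX, an hnRNP-like protein encoded on the X chromosome in mammals, was called at 120 days (-1.22 ± 0.27, adjusted p = 0.00276) and not at 3 days (-0.69 ± 0.27, adjusted p = 0.0536), and its 120-day arrays were below all others. RBM3 read 1327, 1559 and 936 on the fetal arrays, 757, 657 and 321 at 3 days, 728, 1171 and 408 at 60 days and 843, 588 and 509.5 at 120 days. RBM3, a cold-inducible RNA-binding protein, varied widely between arrays of one stage, and its 60-day arrays overlapped those of every other stage. Its change of -1.17 ± 0.40 (adjusted p = 0.0315) at 3 days was called, a call lost without 65 dpc replicate 1 or 2 or 3 days replicate 3 (highest adjusted p = 0.122) and without fetal replicate 2 and 60 days replicate 1 (adjusted p = 0.114). RBM39, a U2AF-related splicing coactivator, changed by -0.70 ± 0.25 (adjusted p = 0.0346) at 120 days, a call lost without 65 dpc replicate 2 or 3 or 120 days replicate 1 or 3 (highest adjusted p = 0.131), without fetal replicate 2 and 60 days replicate 1 and with a replicate block. RBM4, which regulates exon choice during muscle cell differentiation, read 236, 214 and 206 in the fetus and 201, 154 and 179 at 120 days without overlap (-0.27 ± 0.19, adjusted p = 0.243). RBM8A, the Y14 subunit of the exon junction complex, changed by 0.28 ± 0.28 (adjusted p = 0.445) and 0.12 ± 0.28 (adjusted p = 0.758). Neither was called.

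After the first step the families had 0 calls. From 3 to 60 days 0 of 94 genes were called by limma, beside 1.53% of all probe sets (0.786% higher and 0.742% lower, or 1.51%, 0.711% and 0.798% over 1 probe set per gene). The smallest adjusted p of the 94 genes was 0.0861. An unadjusted p under 0.05 was seen for 17 of the 94 genes and for 2680 of all 16166 probe sets. From 60 to 120 days 0 were called and 8 had an unadjusted p under 0.05, where 0% of all probe sets were called and 1021 had an unadjusted p under 0.05. In that last step 70 of 94 changes were below 0, with a median of -0.19 (all probe sets, -0.0074). The 120-day arrays lay below all 60-day arrays for 19 genes and above them for 0, where 7.52% and 6.33% of all probe sets did so. For the first step those counts were 28 lower and 9 higher (all probe sets, 26.3% and 26.7%), from 3 to 60 days they were 10 lower and 13 higher (all probe sets, 10% and 10.4%), and over the whole span they were 50 lower and 5 higher (30.6% and 30% of all probe sets). The 9 later arrays all lay below the fetal arrays for 16 genes (17.0%, and 17.7% of all probe sets). They all lay above for 4 (4.26%, and 16.4% of all probe sets), which were HNRNPA2B1, DDX1, DDX47 and DDX54.

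The calls at both ends of the series overlapped in part. Of the genes called at 3 days, 19 were also called at 120 days against the same fetal arrays and 5 were not (HNRNPDL, PRPF39, DDX20, DDX56 and RBM3). A further 24 were called at 120 days alone, and 14 genes were at least 2-fold lower there: HNRNPA1, HNRNPA3, HNRNPD, HNRNPR, SRSF1, SRSF7, SRSF9, SF3B1, SNRPD1, DDX50, RBM15B, RBM26, RBMS2 and RBMX. Of these, SRSF9 and RBM15B were not called at 120 days with their other probe set. No share over all probe sets is given for these counts, so they are not read as a feature of the families. With any 1 array left out, 12 of the 24 calls at 3 days and 30 of the 43 at 120 days were kept. The 12 were HNRNPA1, HNRNPD, HNRNPL, SRSF11, SF3B1, DDX50, DDX54, DDX56, RBM15B, RBM26, RBM5 and RBMS2.

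Of the 97 genes, 37 had several probe sets, 35 of them 2 or more that were tested. In 0 of the 35 genes were probe sets called in both directions, at 3 days or at 120 days, and in 11 genes 2 or more were called the same way at 3 days. All 3 probe sets of SRSF1 were lower at 120 days, with changes from -1.27 to -1.02, and both probe sets of SF3B1 and of DDX1 were called at both stages. SRSF6 had 6 measured probe sets. Its brightest one changed by -0.47 (adjusted p = 0.126) at 3 days, and 2 dimmer ones by -2.10 (adjusted p = 4.27e-05) and -1.76 (adjusted p = 0.000544). SRSF11 had 5, of which 3 were called lower at 3 days while the other two changed by 0.07 (adjusted p = 0.691) and -0.10 (adjusted p = 0.558). Other calls rested on the choice of probe set. With the second brightest one, SRSF9 was not called at 120 days (adjusted p = 0.322), nor DDX39A (adjusted p = 0.0673) and RBM26 (adjusted p = 0.0996) at 3 days. The other probe set of RBM15B changed by 0.08 (adjusted p = 0.663) at 3 days and 0.02 (adjusted p = 0.907) at 120 days, and that of HNRNPC by 0.0011 (adjusted p = 0.995) at 120 days. For SNRPG the dimmer probe set was higher at 120 days by 1.45 (adjusted p = 0.000222), where the brighter one changed by -0.34 (adjusted p = 0.471). A dimmer probe set of RBM8A was also higher, by 1.02 (adjusted p = 0.0241). The annotation does not say which transcript each probe set covers.

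**Figure D5:**
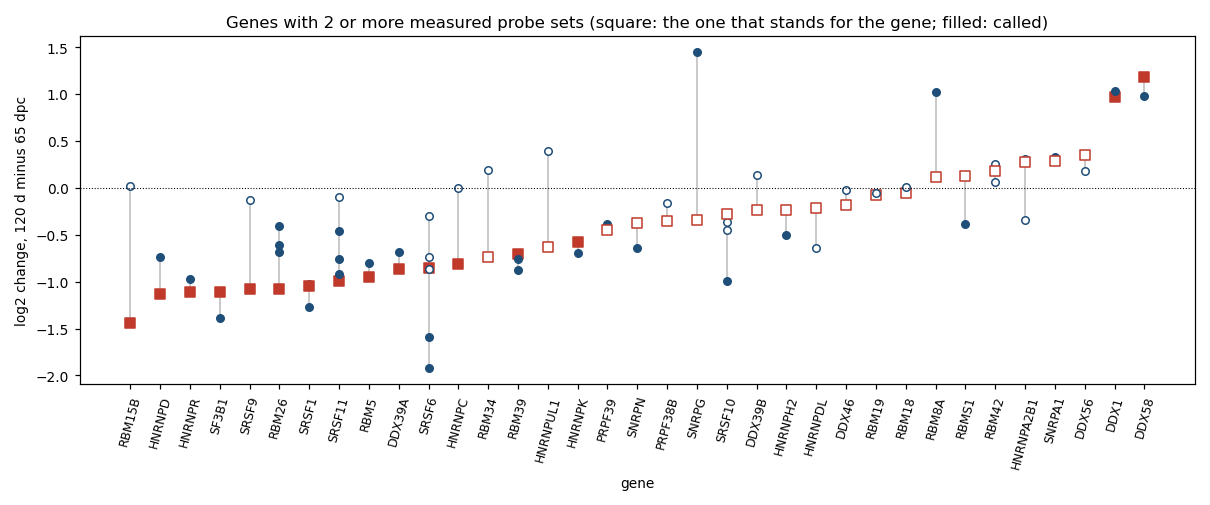
For the 35 genes with at least 2 measured probe sets, each symbol is the log2 change of 1 probe set from 65 dpc to 120 days, a square for the one that stands for the gene and filled where called. Probe sets of SRSF1, SF3B1, RBM26 and DDX1 lie on one side of 0, whereas SNRPG and RBM8A have a filled circle above an open square.

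Other genes of RNA processing were read from lists outside the 7 families. Of the genes tested in each, the share called at 3 and at 120 days, beside 43.0% and 48.4% of all probe sets, was 35.7% and 50% for regulators of exon choice in muscle, 0% and 25% for SR protein kinases, 20% and 43.3% for other spliceosome proteins, 22.2% and 0% for snRNP assembly, 23.1% and 53.8% for exon junction and surveillance genes and 33.3% and 25% for 3-prime end processing. Of 26 regulators of exon choice in muscle, 14 were tested, 5 were lower at 3 days and 7 at 120 days, and 0 were higher. RBFOX2 read 740.3, 627 and 497 on the fetal arrays, 249, 320.5 and 229 at 3 days, 114, 141 and 185 at 60 days and 192, 169.6 and 125 at 120 days. RBFOX2, which binds GCAUG elements beside muscle exons, changed by -1.16 ± 0.23 (adjusted p = 0.00205) at 3 days and -1.81 ± 0.23 (adjusted p = 8.35e-05) at 120 days. MBNL3 read 95.9, 134 and 67.0 on the fetal arrays, 21.1, 18.9 and 23.7 at 3 days, 13.5, 19.1 and 12.1 at 60 days and 16.3, 14.8 and 9.74 at 120 days. MBNL3, the muscleblind protein linked to undifferentiated muscle cells, was dim after birth, with changes of -1.47 ± 0.17 (adjusted p = 6.54e-05) and -1.76 ± 0.17 (adjusted p = 1.34e-05). PTBP1 read 416, 596 and 452 on the fetal arrays, 224, 214 and 213 at 3 days, 185, 139 and 218 at 60 days and 163, 185 and 122 at 120 days. PTBP1, a repressor of muscle and neuronal exons, changed by -1.08 ± 0.21 (adjusted p = 0.00177) and -1.52 ± 0.21 (adjusted p = 0.000141). In all 3 genes every later array was below every fetal array. CELF2, KHDRBS1, ELAVL1 and TRA2A completed the 7 lower genes.

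Of 7 SR protein kinases, 4 were tested, 0 were called at 3 days by limma (1 at an unadjusted p under 0.05), and CLK2 was lower at 120 days (-0.94 ± 0.20, adjusted p = 0.00228). Of 50 spliceosome proteins named outside the families, 30 were tested, with 2 higher and 4 lower at 3 days and 4 higher and 9 lower at 120 days. U2SURP, a U2 snRNP-associated protein, was lower (-0.83 ± 0.21, adjusted p = 0.00778 at 3 days), and SNRNP40 was lower at 120 days (-0.97 ± 0.20, adjusted p = 0.002). BCAS2, of the PRP19 complex, read 443, 269 and 379 in the fetus and 829.8, 900.3 and 639 at 120 days, a change of 1.09 ± 0.25 (adjusted p = 0.00358). U2AF2, which binds the polypyrimidine tract, read 21.9, 23.8 and 23.1 in the fetus and 56.6, 65.0 and 60.6 at 3 days, a change of 0.89 ± 0.11 (adjusted p = 8.23e-05) between dim values.

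The snRNP assembly list held 13 genes, of which 9 were tested, 2 were higher at 3 days and 0 were called at 120 days (2 at an unadjusted p under 0.05). PRMT5 read 199, 208 and 126 on the fetal arrays, 389.9, 288 and 463 at 3 days, 262, 303 and 241 at 60 days and 195, 182 and 189 at 120 days. PRMT5 and WDR77 form the methylosome, which methylates Sm proteins before they are loaded onto snRNA, and their changes at 3 days were 1.02 ± 0.22 (adjusted p = 0.00316) and 1.07 ± 0.26 (adjusted p = 0.00572). WDR77 read 179, 188 and 97.6 in the fetus and 414, 310.3 and 296 at 3 days. Of 21 exon junction and surveillance genes, 13 were tested, with 1 higher and 2 lower at 3 days and 1 higher and 6 lower at 120 days. UPF3B, of nonsense-mediated decay, changed by -1.36 ± 0.29 (adjusted p = 0.00295) and -1.52 ± 0.29 (adjusted p = 0.00116), and NCBP2, of the nuclear cap-binding complex, by -1.17 ± 0.21 (adjusted p = 0.000735) at 120 days. The call of NCBP2 at 3 days was lost without 65 dpc replicate 1 or 2, 3 days replicate 1 or 2 or 3 or 120 days replicate 1 (highest adjusted p = 0.126), without fetal replicate 2 and 60 days replicate 1 (adjusted p = 0.11) and under quantile normalization (adjusted p = 0.0653). Of 18 genes of 3-prime end processing, 12 were tested, with 2 higher and 2 lower at 3 days and 0 higher and 3 lower at 120 days. PABPC1, the main cytoplasmic poly(A)-binding protein, changed by -0.84 ± 0.23 (adjusted p = 0.0111) and -1.46 ± 0.23 (adjusted p = 0.000308).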

How the data were processed

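Longissimus dorsi RNA was hybridized to 1-colour Affymetrix porcine arrays, 12 in all. The deposited values are intensity on a linear scale, made with GCOS 1.4 per the submitters' processing notes. How background was corrected and how probe sets were summarised and scaled is not given in the sources used here. Of 24123 probe sets in the deposited table, 124 were controls and were left out. Gene names come from the platform annotation, with 10069 probe sets under 1 symbol, 198 under several and 13732 not listed. All 97 member symbols are in the RefSeq gene table.

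Values were analysed as log2(intensity + 21), with the 25th percentile of the table as pseudocount. The filter kept 16166 probe sets (67.4%) that on at least 3 arrays exceeded the 40th percentile of that array. limma 3.58.1 in R 4.3.3 fitted 1 mean per stage (lmFit, eBayes with trend, 8 residual and 4.26 prior degrees of freedom) with two-sided tests and Benjamini-Hochberg adjustment, and it was tested on simulated data. The number of arrays, 3 per stage, limits the precision. The labels call the replicates biological.

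Members and gene lists were chosen with earlier results of these data known. Genes were named by a rule: in each family up to 4 called across the stages with the largest range of stage means, members called at the second step or the last one or in opposite directions, a list of well-known members, up to 3 per family called against its majority, and up to 3 genes per pathway list. Other named genes, such as HNRNPDL, DDX47, DDX56, DDX60, SRSF6 and U2AF2, were chosen after their values were seen. Alternatives changed the pseudocount, filter, scaling, test, probe set and arrays. Same-numbered arrays of different stages did not consistently deviate together (r of -0.424 to 0.297 over 18 pairs, 8 over 0.1). Fetal replicate 3 gave r of 0.260, 0.143 and 0.297 with replicate 3 at 3, 60 and 120 days, while those of 3 and 60 days gave -0.208. Replicate 3 also had the lowest actin ratio at every stage, and what these arrays share was not tested. The labels link no animals across stages, so the numbers were not taken to pair animals. Pairs with different numbers gave r of -0.408 to 0.646 over 36 pairs, 11 over 0.1.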

Additional observations from a re-analysis of the deposited data

How the results depend on the processing

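The counts of genes called were within 1.5 times the values reported under the other pseudocounts, filters, array-median centring, quantile normalization and variance models tried, except where given here. These totals hide changes of which genes were called: under quantile normalization 17 of the 24 genes called at 3 days and 39 of the 43 at 120 days were kept, with 7 higher and 14 lower at 3 days. Centred on hybridization controls, 57 genes were called across the stages and 67 at 120 days against the fetus, beside 48.8% and 51.8% of all probe sets. With the fit limited to the arrays of the stages compared, 16 of the 24 calls at 3 days were kept. Those of SF3A1, SF3B4, PRPF4, PRPF4B, DDX1, DDX20, DDX39A and DDX47 were lost. At 120 days that fit called 46 genes, 41 of them among the 43, and the calls of HNRNPH1 and DDX58 were lost. With the second brightest probe set, available for 35 genes, 13 were called across the stages, 11 at 3 days (4 higher and 7 lower) and 19 at 120 days (5 higher and 14 lower); fewer genes were tested there. That choice turned the change of RBM15B to 0.079 at 3 days and 0.022 at 120 days, and that of HNRNPC to 0.0011 at 120 days; the cause was not tested. Leaving out 1 array at a time gave 26 to 41 calls across the stages, 17 to 27 at 3 days, 0 to 1 from 3 to 60 days (DDX11, without 3 days replicate 3), 0 from 60 to 120 days and 33 to 46 at 120 days against the fetus. Without fetal replicate 2 and 60 days replicate 1 together these counts were 28, 23, 0, 0 and 40.

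With a replicate block the counts were 34 across the stages, 24 at 3 days, 0 at both later steps and 39 over the whole span. Results of single named genes that were called in the fit reported were followed under the alternatives. Of these values 2785 stayed called, in the same direction where stages were compared, and 216 lost the call. The F test has no direction. A further 3 values lost the call near 0 with the opposite sign (limma adjusted p from 0.663 to 0.995). The added 21 understates the changes of the dimmest members, and how far each probe set lay above background was not analysed here.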

Other observations

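The 3 genes below the filter on dim values were called across the 4 stages and at 120 days against the fetus when no filter was applied. At 3 days SRSF12 was called there, and DDX25 and DDX4 were not. Of all 23999 probe sets in that fit, 39.8% were called across the stages, 37.8% at 3 days and 44% at 120 days. These calls are therefore not read as a trait of the 3 genes. SRSF12 was at its highest in the fetus, with 44.4, 42.5 and 32.3 there and 16.0, 19.8 and 21.9 at 120 days. DDX25, a testis helicase, ran the other way, with 12.2, 12.4 and 14.4 in the fetus and 29.1, 31.5 and 42.0 at 120 days. DDX4 stayed between 5.56 and 12.6 on all 12 arrays. With intensities this low, no level was compared between the 3 genes.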
